A study of Mus musculus with 6 samples.

Results

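mmu-miR-132-3p and mmu-miR-212-3p, called miR-132-3p and miR-212-3p below, are 2 mouse microRNAs (miRNAs, short RNAs that repress messenger RNAs) processed from neighbouring hairpins of a single locus, and they were taken by name from the 1247 mouse miRNAs measured on each array. Their levels were measured in 3 macrophage populations sorted from untreated wild-type C57BL6/J males: brain microglia, colon macrophages and the macrophages of the liver (Kupffer cells). Animals were 6 weeks old by the sample labels and between 6 and 8 weeks old by the design text. Microglia were sorted as CD45-intermediate, CD11b+ and F4/80+ cells lacking Ly6C and Ly6G, colon macrophages by CD45, CD11b, CD11c and CD64 in the absence of Ly6C, and liver macrophages by MHC class II together with CD64, F4/80, CD11b and CD45. There were 2 arrays per population and 6 in all, and the RNA of an array came from a pool of 4 to 6 animals, so a replicate is a pool and not a single animal. Because RNA came from sorted bulk cells, a change in the share of expressing cells and a change in the amount per cell cannot be told apart.

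The locus of miR-212 and miR-132 is a textbook target of the transcription factor CREB. In neurons its transcription follows activity and neurotrophins, and miR-132 promotes the growth of dendrites and spines. In myeloid and other immune cells miR-132 is known to be induced by inflammatory stimuli and to restrain the response to them, with acetylcholinesterase among its known targets. A miRNA recognises its targets mainly through its seed, bases 2 to 8 from the 5′ end, and miRNAs with one seed share most predicted targets.

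The mature sequences below show why the pair counts as a single family; capitals mark the seed, and all sequences are RefSeq's for GRCm38.p6, written 5′ to 3′.
miR-132-3p: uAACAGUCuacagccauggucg
miR-212-3p: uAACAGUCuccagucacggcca
miR-132-5p: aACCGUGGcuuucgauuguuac
miR-212-5p: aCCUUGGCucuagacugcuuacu

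The 3p arms share their seed, and among 1679 mature mouse miRNAs of the RefSeq table these 2 are the ones that carry it. They are identical over the first 9 bases and at 17 of 22 positions in all (77.3%). Counted from 1 at the 5′ end, with the base of miR-132-3p first, they differ by A10C, C14U, U17C, U20C and G22A. The 5p arms do not share a seed with each other, and for each of them 1 mature miRNA, the arm itself, carries its seed in that table.

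The hairpins are shown because they carry both arms of each precursor; capitals mark the mature 3p arm.
Mir212: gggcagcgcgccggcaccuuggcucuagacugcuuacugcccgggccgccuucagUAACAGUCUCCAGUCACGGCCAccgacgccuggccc
Mir132: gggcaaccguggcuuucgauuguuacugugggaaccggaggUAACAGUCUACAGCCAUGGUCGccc

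On the plus strand of GRCm38.p6, Mir212 lies at chr11:75173388-75173478 and Mir132 at chr11:75173682-75173747. The hairpins are 91 and 66 bases long, are separated by 203 bp and together span 360 bp. Of the other genes that RefSeq annotates, 0 overlap this span, so the locus is intergenic there. The nearest protein-coding genes are Hic1, a transcriptional repressor gene that ends 3426 bp before Mir132, and Ovca2, which starts 2195 bp after it. Within 1000 kb of Mir132 the other miRNA genes are Mir6926, 305 kb before it, and Mir22 and Mir3971, 290 kb and 378 kb after it.

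Each array reports for each miRNA a fluorescence signal, the error the scanner software gives that signal, and whether the miRNA was detected. The arrays detected 300 to 403 of the 1247 miRNAs, with the fewest on the microglia arrays, and the number of arrays limits the precision of every value here. The 75th percentile of the 248 miRNAs that every array detected was taken on each array, and signals were multiplied by the mean of these percentiles over arrays divided by the array's own, which puts them on a common scale (scaled units). The factors ran from 0.785 to 1.27. A floor of 3.12 scaled units, 1.64 on the log2 scale, stands in for undetected values and for detected signals below it. Signals of different miRNAs depend on their probes and were not compared as amounts. The myeloid markers miR-142-3p, miR-142-5p and miR-223-3p were detected on all 6 arrays.

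miR-132-3p was low in microglia and measured well in both other populations. In microglia it was not detected on replicate 1, and on replicate 2 it stood at 11.5 scaled units with a software error of 2.49, a signal 4.62 times its error. In colon macrophages it stood at 82.8 and 111.7 scaled units, with signals 12.5 and 12.2 times their errors. In liver macrophages it stood at 39.1 and 58.9 scaled units, 10.4 and 11.7 times their errors. Both colon arrays thus lay above both liver arrays and both microglia arrays lay below all others, with no overlap between any of the groups.

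miR-212-3p, with the same seed, was detected on all 6 arrays and at like levels on each. It stood at 107.3 and 136.9 scaled units in microglia. The colon arrays read 105.6 and 114.7, and the liver arrays 91.7 and 135.1. Every signal was 11.6 to 12.5 times its error. The lowest and the highest values of the other groups lay within or next to the range of the liver arrays, and all groups overlapped.

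**Figure D1:**
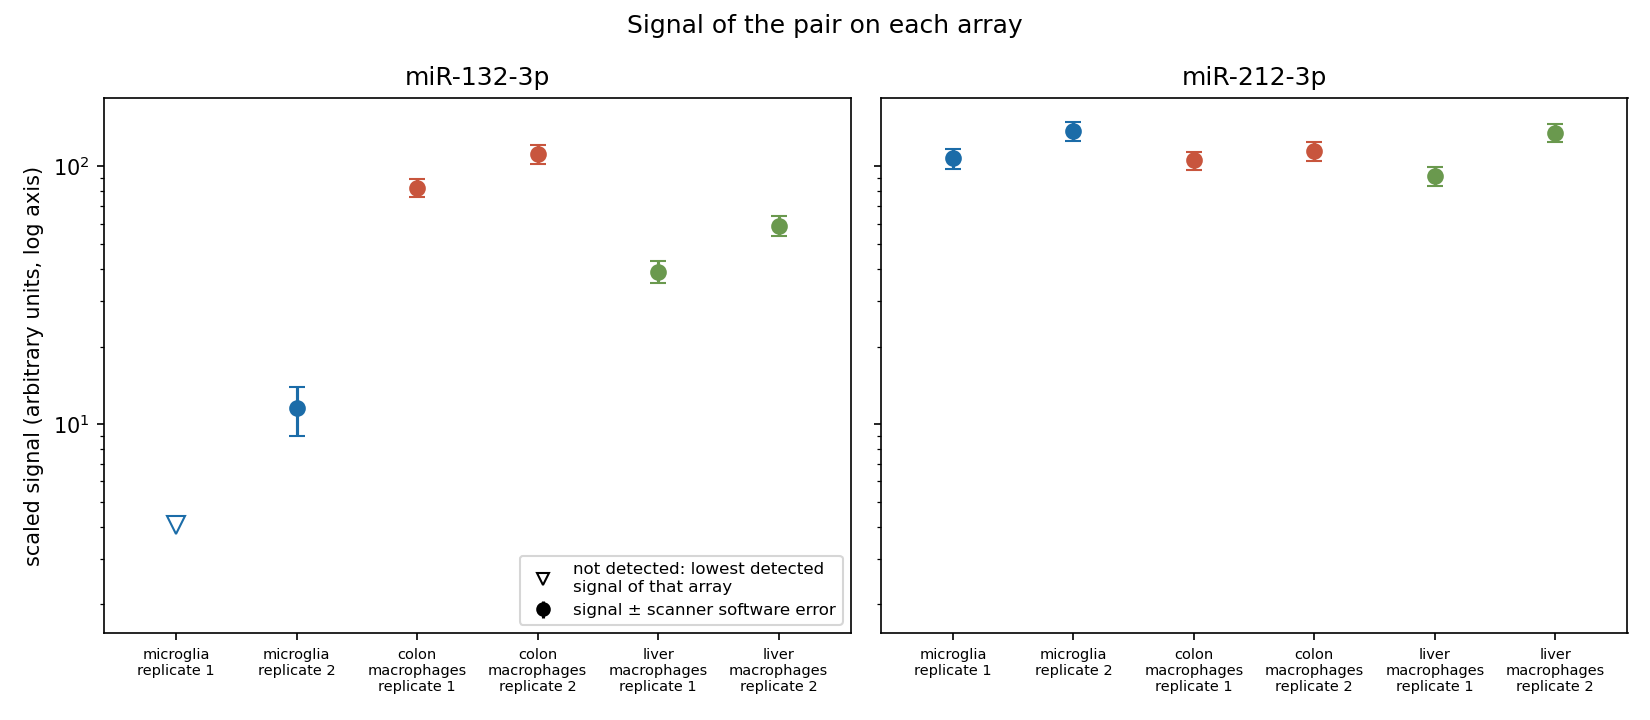
Scaled signal (arbitrary units, log axis) of miR-132-3p and miR-212-3p on each of the 6 arrays, with bars for the scanner software's error and an open triangle at the array's lowest detected signal where the miRNA was not detected. miR-132-3p runs from not detected in microglia replicate 1 to 111.7 in colon replicate 2, whereas miR-212-3p stays between 91.7 and 136.9.

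The other strands of both hairpins gave no signal: miR-132-5p and miR-212-5p were on the arrays and were detected on 0 of 6 arrays each. Their levels are therefore not known. The lowest detected signal of any miRNA, 2.71 to 4.33 scaled units across arrays, is a guide and not a strict bound, because detection is flagged for each miRNA separately. In each population the locus was thus read through its 3p arms alone.

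The difference of the pair within an array does not change when the array is divided by a factor. Probe brightness is part of each such difference, so only its movement between arrays carries information. The log2 level of miR-132-3p minus that of miR-212-3p was -0.35 and -0.039 for the colon arrays. It was lower for the liver arrays, at -1.23 and -1.20. It was -3.57 on microglia replicate 2 and, with miR-132-3p put at the lowest detected signal of the array, -4.72 on microglia replicate 1. The latter is a substituted value and not a measured one. The group means were -0.20 ± 0.22 in colon macrophages and -1.21 ± 0.023 in liver macrophages (SD, n = 2), so the liver difference lay about 1 log2 unit below that of the colon and the microglia values lay further below. With 2 arrays per group this difference was not tested. The values describe how far apart the members lay on these arrays and do not mean that either member was constant.

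**Figure D2:**
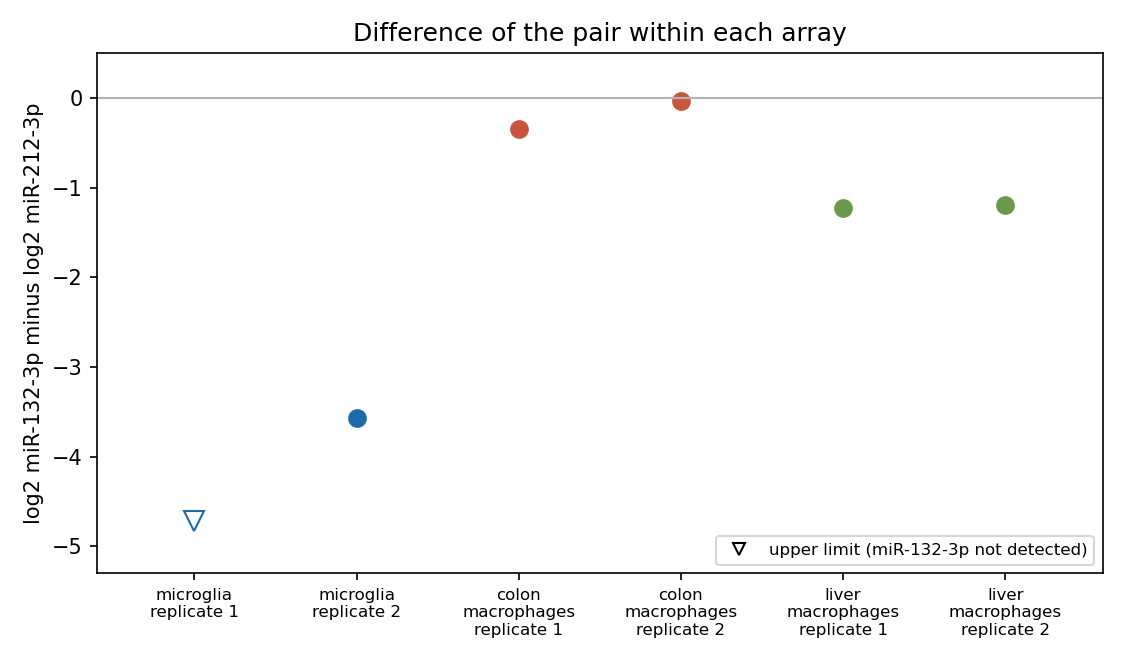
Log2 level of miR-132-3p minus log2 level of miR-212-3p on each array. The open triangle, labelled upper limit, puts the undetected miR-132-3p of microglia replicate 1 at that array's lowest detected signal, which is not a strict bound. The colon arrays lie at -0.35 and -0.039, the liver arrays at -1.23 and -1.20 and microglia replicate 2 at -3.57.

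Microglia and colon macrophages, the latter renewed from blood monocytes, were compared to find miRNAs that set microglia apart. miR-132-3p fell from a log2 level of 6.59 ± 0.31 in colon macrophages to 2.58 ± 1.33 in microglia (SD, n = 2), the latter detected on 1 of 2 arrays. In limma's test over all 379 miRNAs that could be tested, the log2 change was -4.00 (SE 0.67, 95% interval -5.71 to -2.30, adjusted p = 0.0105). miR-132-3p entered the test through the colon arrays, since microglia replicate 1 did not detect it, and the size rests on the floor used there. Against the measured value of replicate 2 the colon mean was 8.35-fold higher, and against the lowest detected signal of replicate 1 it was 23.5-fold higher. The latter ratio is a guide, since that signal is not a strict bound for an undetected miRNA. Of the miRNAs tested 28.5% were called lower in microglia, and 51.2% had microglia arrays wholly below the colon arrays, so the call itself is a common one in this comparison. By size of change miR-132-3p stood at rank 12 among the 108 called lower.

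miR-212-3p did not pass in that comparison. Its log2 level was 6.92 ± 0.25 in microglia and 6.78 ± 0.08 in colon macrophages (SD, n = 2), a change of 0.14 (SE 0.31, adjusted p = 0.724 in limma's test). The 95% interval of the ratio ran from 0.633-fold to 1.91-fold, so a difference within those bounds is not excluded by these arrays. The median of all miRNAs tested was itself -0.43 log2 units, and relative to it miR-132-3p lay at -3.57 and miR-212-3p at 0.57. Across 6 ways of scaling (the main one, median, quantile, none, the dmr control rows and the authors' values, leaving aside a percentile that falls on the placeholder for undetected miRNAs) these relative changes ranged from -3.70 to -3.40 and from 0.56 to 0.69. The sign of the unshifted miR-212-3p change flipped, to -0.19 with no scaling and -0.29 on the control rows. The split of calls moved as well, from 67 higher and 108 lower to 112 higher and 69 lower with median scaling and 29 higher and 108 lower with none.

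The call of miR-132-3p against colon macrophages was lost in limma's test without colon replicate 1 (log2 change -4.15, adjusted p = 0.0971) or without colon replicate 2 (-3.91, adjusted p = 0.116). Without microglia replicate 1 the change was -3.05. Without microglia replicate 2 it was -5.19, where the microglia level is the floor alone. Both fits leave out the spread between the microglia arrays, so keeping the call in them is not read as support.

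Liver macrophages, a population that is also seeded before birth and long-lived, gave the same order for the pair. miR-132-3p stood at a log2 level of 5.58 ± 0.42 in liver macrophages (SD, n = 2), and its change in microglia was -3.00 (SE 0.67, 95% interval -4.70 to -1.30, adjusted p = 0.0172 in limma's test over 382 miRNAs). Here miR-132-3p entered the test through the liver arrays, and the size again rests on the floor used on microglia replicate 1. The liver mean was 4.17-fold above microglia replicate 2 and 11.7-fold above the lowest detected signal of microglia replicate 1, the latter again a guide and not a bound. In this comparison 31.7% of the miRNAs tested were called lower in microglia, 48.7% had microglia arrays wholly below the liver arrays, and miR-132-3p stood at rank 34 by size among the 121 called lower. The microglia arrays are shared with the comparison above, so the 2 results are not independent of each other.

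miR-212-3p stood at 6.80 ± 0.39 in liver macrophages (SD, n = 2), next to 6.92 ± 0.25 in microglia. The change was 0.12 log2 units (SE 0.31, adjusted p = 0.763 in limma's test), with a 95% interval of the ratio from 0.626-fold to 1.89-fold. The median of all tested miRNAs was -0.60, from which miR-132-3p lay at -2.40 and miR-212-3p at 0.73. Over the same 6 scalings these relative changes ranged from -2.71 to -2.37 and from 0.57 to 0.80, and the unshifted miR-212-3p change was negative with no scaling (-0.25) and on the control rows (-0.29). The calls were 81 higher and 121 lower, against 124 and 108 with median scaling and 36 and 126 with none.

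The call of miR-132-3p against liver macrophages was lost under more alternatives than the call against colon macrophages. It did not pass in limma's test with quantile normalization (log2 change -2.67, adjusted p = 0.0544) and in the authors' value table (-2.77, adjusted p = 0.0708), and without any single colon or liver array: -2.93 without colon replicate 1 (adjusted p = 0.0721), -3.07 without colon replicate 2 (0.0884), -3.20 without liver replicate 1 (0.0937) and -2.63 without liver replicate 2 (0.110). Without microglia replicate 1 the change was -2.06, and without microglia replicate 2, with the microglia level at the floor alone, it was -4.12. Here too the spread between the microglia arrays is left out, so keeping the call is not read as support.

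**Figure D3:**
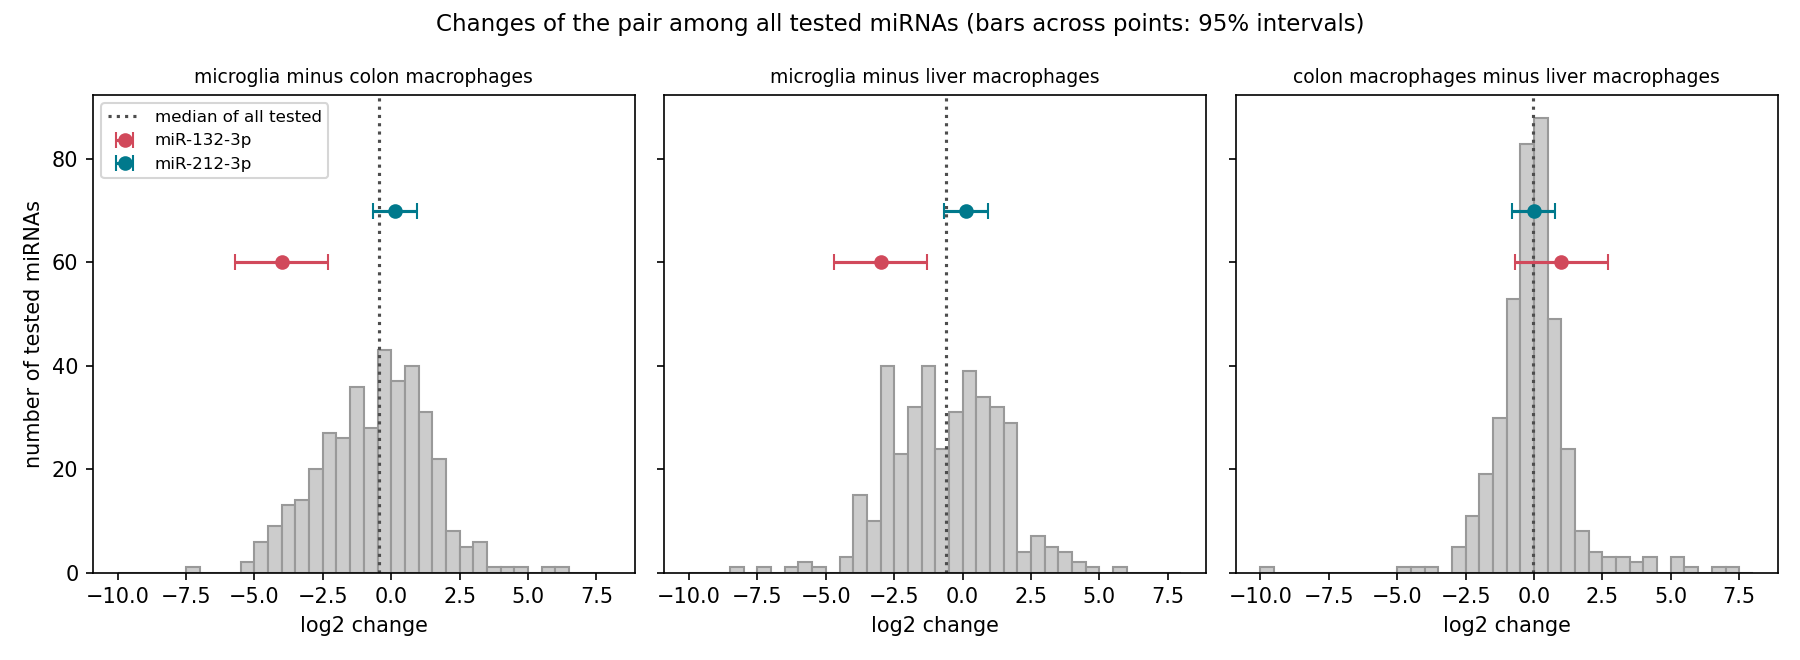
Histograms of the log2 change of all tested miRNAs in the 3 comparisons (bins of 0.5 log2 units), with the changes of miR-132-3p and miR-212-3p drawn as points with 95% intervals at arbitrary heights and the median of all tested miRNAs as a dotted line. miR-132-3p lies in the lower tail against both other populations, at -4.00 and -3.00, and miR-212-3p lies at 0.14 and 0.12.

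Between colon and liver macrophages, miR-132-3p did not pass the test. The colon mean was 2.00-fold the liver mean (log2 change 1.00, SE 0.67, adjusted p = 0.392 in limma's test over 396 miRNAs), with a 95% interval from 0.616-fold to 6.52-fold. That SE is shared by all 3 groups, so the spread of the microglia arrays (SD 1.33), 1 of them at the floor, enters it and the interval. With only the 4 colon and liver arrays the SE was 0.38 (adjusted p = 0.245 in limma's test). The colon arrays lay wholly above the liver arrays, as they did for 25.3% of the miRNAs tested, while 10.1% were called in either direction. miR-212-3p changed by -0.016 log2 units (SE 0.31, adjusted p = 0.981 in limma's test), with an interval from 0.569-fold to 1.72-fold. Ordered by level, miR-132-3p therefore ran from colon through liver macrophages to microglia, with the first step not passing the test. For miR-212-3p no neighbouring levels differed beyond the spread of their arrays.

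**Figure D4:**
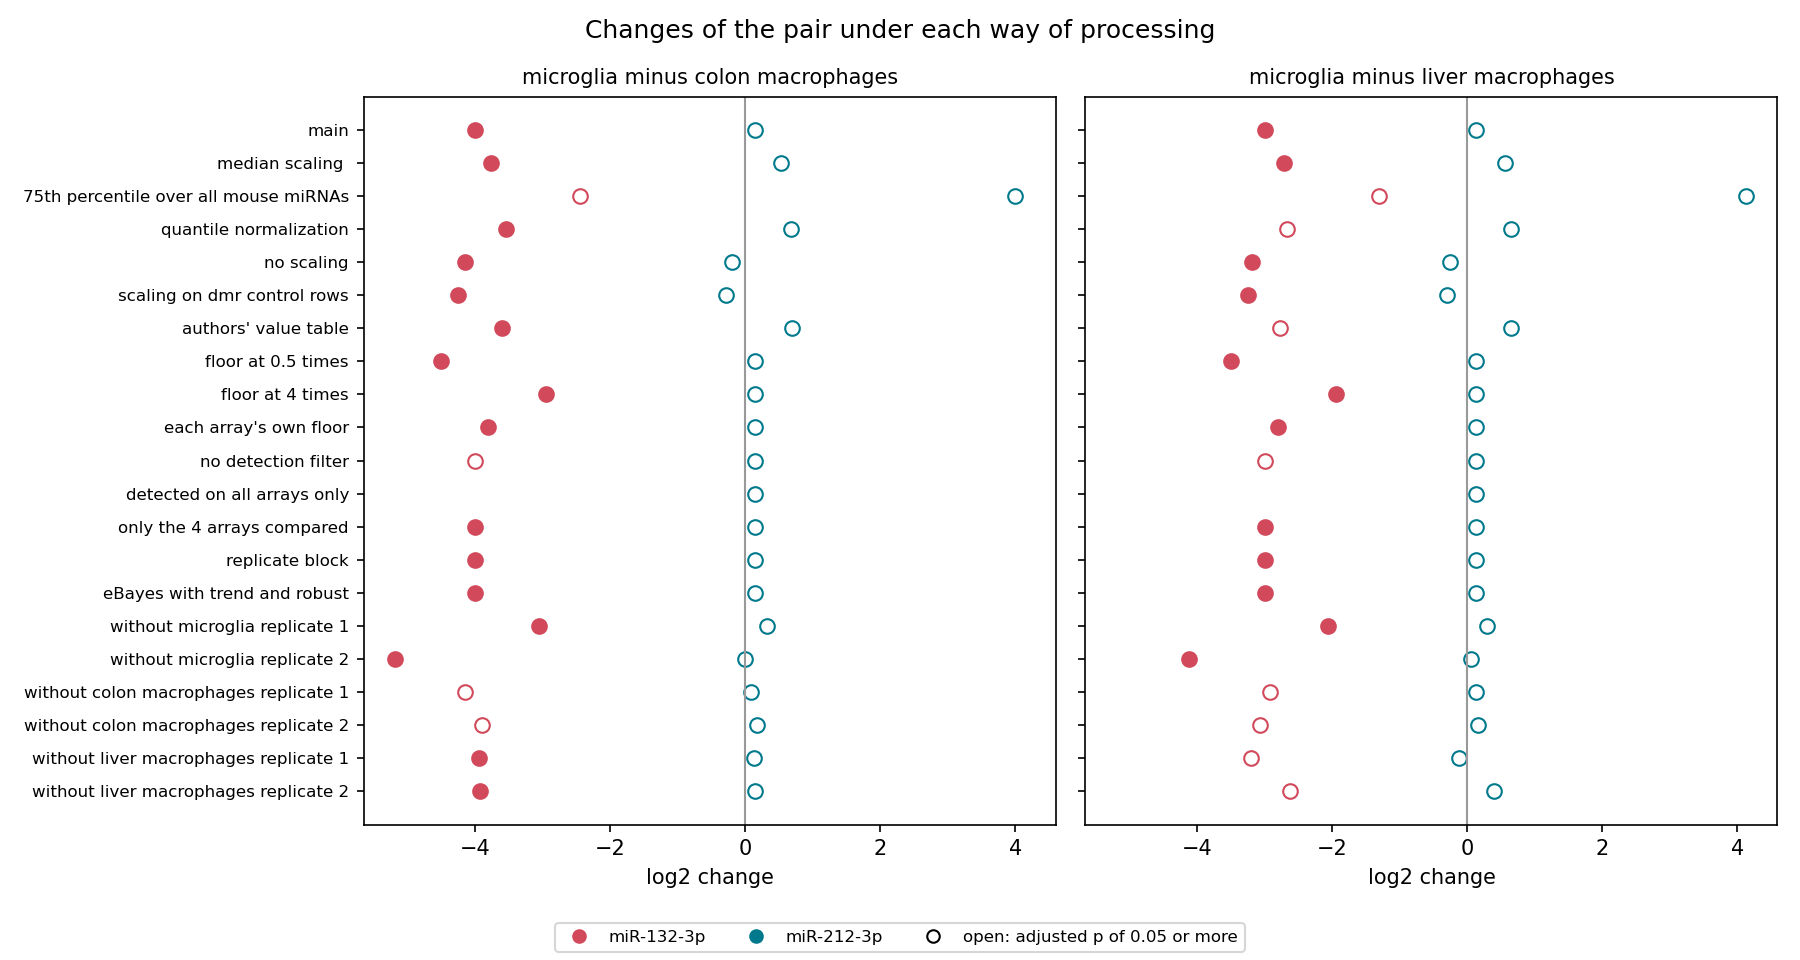
Log2 change of miR-132-3p and miR-212-3p in microglia against each other population under the main processing and each alternative, filled where the adjusted p was under 0.05 and open otherwise. All values of miR-132-3p lie below 0, from -5.19 to -2.45 against colon and from -4.12 to -1.30 against liver macrophages, while the values of miR-212-3p lie on both sides of 0.

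Among the miRNA neighbours on the chromosome, miR-3971 was detected on 0 arrays. miR-22-3p, a broadly expressed miRNA also found in myeloid cells, was detected on all 6, with log2 levels of 9.93 and 10.06 in microglia. The colon arrays read 10.65 and 10.66 and the liver arrays 10.19 and 11.17, the latter spanning the colon values. Its changes in microglia were -0.66 against colon and -0.68 against liver macrophages, and neither passed limma's test (adjusted p = 0.201 and 0.184). The other arm, miR-22-5p, was also detected on all arrays and passed in neither comparison.

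The miRNA whose levels followed miR-132-3p most closely over the 6 arrays was miR-223-3p, a miRNA of granulocytes and macrophages that restrains granulocyte production. The Pearson correlation of log2 levels was 0.96 (n = 6 arrays in 3 groups of 2, among 413 other miRNAs, given as a description). miR-223-3p stood at 8.27 and 8.47 in microglia, and the colon arrays read 12.67 and 12.83 against 11.45 and 12.40 for the liver arrays. It thus had the same order of groups as miR-132-3p. The next were miR-10a-5p, a miRNA of the Hox clusters (0.95), miR-5132-5p (0.95), miR-1907 (0.95) and miR-6385 (0.94). Of these 4, miR-10a-5p and miR-1907 were called lower in microglia against both other populations, and miR-5132-5p and miR-6385 against neither. Such a call was made for 28.5% of all miRNAs tested against colon and 31.7% against liver macrophages. All were picked for likeness to miR-132-3p on these same arrays, so low levels in microglia follow from the choice. miR-1907 was not detected on microglia replicate 1, so the floor enters its change.

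For miR-212-3p the closest were miR-6402 (0.93), miR-3963 (0.91), miR-674-3p (0.88) and the let-7 members let-7f-5p (0.86) and let-7a-5p (0.85). None of these 5 was called in any of the 3 comparisons in limma's test. They were picked on these same arrays for likeness to a miRNA that was itself not called. In liver macrophages each of them was higher on replicate 2 than on replicate 1, as was miR-212-3p. The members of the pair did not follow each other: their correlation over the 6 arrays was -0.048, which placed miR-212-3p at rank 267 of 413 by likeness to miR-132-3p.

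**Figure D5:**
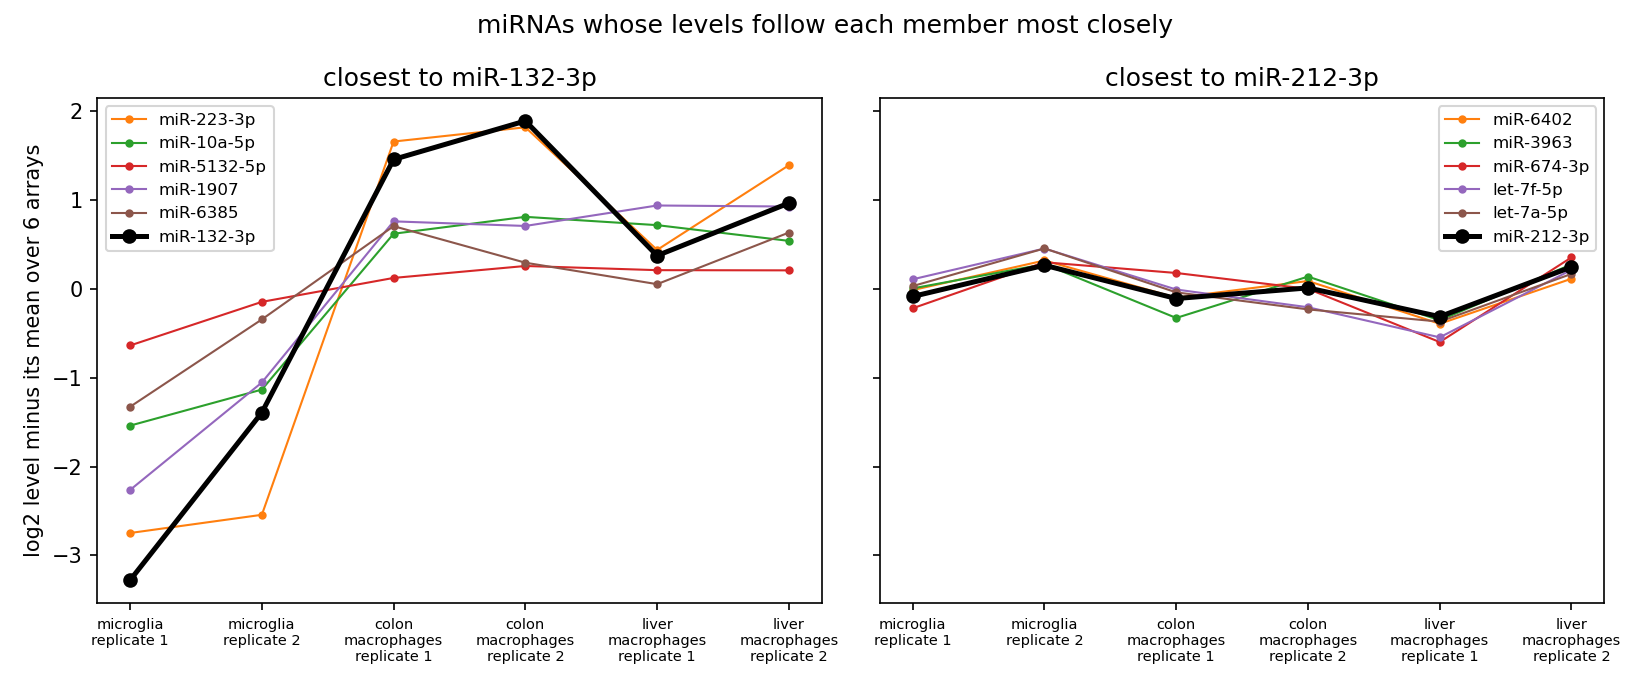
Log2 level minus its mean over the 6 arrays for each member (thick black line) and the 5 miRNAs most correlated with it, with lines joining arrays as a guide only. The miRNAs around miR-132-3p are lowest on the microglia arrays, and those around miR-212-3p vary less and are lowest in liver replicate 1.

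Because miR-132 is best known from neurons and from inflamed myeloid cells, lists of other miRNAs with those roles were examined. A miRNA was tested where both arrays of either group had detected it, so a list member seen in 1 group alone could hardly change in any other direction, and for such members detection and levels are given without a count of calls. The part that any of these lists plays in the result for miR-132-3p was not tested.

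Of 12 neuronal markers on the array 7 were detected on 0 arrays, and the summed signal of the list was 63.4 to 63.5 scaled units in microglia, 15.8 to 18.2 in colon macrophages and 12.1 to 27.6 in liver macrophages. Both arms of miR-9, a miRNA of neural progenitors and neurons, were detected on the microglia arrays and on 0 of the 4 others, with log2 levels of 3.40 and 3.59 for miR-9-5p and 3.39 and 3.26 for miR-9-3p. miR-124-3p, the main neuronal miRNA, stood at 4.08 and 3.86 in microglia and was otherwise detected on colon replicate 1, at 2.47. miR-138-5p was detected on colon replicate 2 and on no other array.

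The neuronal marker detected on all 6 arrays was miR-128-3p, at log2 levels of 4.67 and 4.77 in microglia. The colon arrays read 3.35 and 3.26 and the liver arrays 3.60 and 4.79, so that microglia lay above colon macrophages and within the range of liver macrophages. It was called higher against colon macrophages (log2 change 1.41, adjusted p = 0.0488 in limma's test, a call made for 17.7% of all miRNAs tested) and not against liver macrophages (0.53, adjusted p = 0.339). The first call was lost with no scaling (1.08, adjusted p = 0.137), on the control rows (0.98, adjusted p = 0.169) and without any single microglia or colon array (1.34 to 1.47, adjusted p from 0.149 to 0.218).

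Of 5 other miRNAs regulated by neuronal activity 1 was tested, miR-134-5p, which limits dendritic spine size. It was called lower in microglia against liver macrophages (-1.23, adjusted p = 0.0172 in limma's test, a call made for 31.7% of all miRNAs tested) and not against colon macrophages (-0.79, adjusted p = 0.0624). The call was lost without microglia replicate 2 (-1.15, adjusted p = 0.0558).

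Of 11 miRNAs induced in myeloid cells by inflammatory stimuli, 5 were detected on all 6 arrays, and miR-9-5p, which also stands in the neuronal list, on the microglia arrays alone. Of the 5, 0 were higher and 1 was lower in microglia against colon macrophages, beside 17.7% and 28.5% of all miRNAs tested. Against liver macrophages 2 were higher and 1 was lower, beside 21.2% and 31.7%. With 5 members, nothing about the list is read from these counts.

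The lower one was miR-21a-5p, which limits inflammatory signalling, with log2 changes of -2.36 and -2.47. Its call was lost without either microglia array (adjusted p = 0.139 and 0.138 against colon, 0.115 and 0.117 against liver macrophages in limma's test) or without either colon array (0.172 and 0.167, 0.0799 and 0.0847). The higher ones were miR-146a-5p (1.31) and miR-146b-5p (2.77), which damp receptor signalling. The call of miR-146a-5p was lost with no scaling (0.93, adjusted p = 0.179), on the control rows (0.89, adjusted p = 0.195) and without any single microglia or colon array (adjusted p from 0.113 to 0.159). miR-155-5p, which promotes macrophage activation, did not pass (-0.86 and -1.26, adjusted p = 0.183 and 0.0740 in limma's test). miR-155-3p, miR-146a-3p, miR-187-3p and both arms of miR-147 were detected on 0 arrays.

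Markers of other cell types also differed between the groups. The summed signal of 8 smooth muscle and fibroblast markers ran in the order of miR-132-3p, at 485 to 714 scaled units in colon macrophages with 6 detected on each array, 147 to 221 in liver macrophages with 4 detected, and 43.7 and 0 on microglia replicates 1 and 2 with 2 and 0 detected. miR-143-3p and miR-145a-5p, found in smooth muscle among other cells, were detected on the colon arrays alone. miR-199a-5p, miR-199a-3p, miR-199b-5p and miR-214-3p, found in fibroblasts, were detected on both colon and both liver arrays.

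The endothelial markers, the 2 arms of miR-126, summed to 220 to 247 scaled units in colon macrophages, 2631 to 4140 in liver macrophages and 35.6 and 0 on microglia replicates 1 and 2. The 10 epithelial markers summed to 4133 to 5816 in colon macrophages with all 10 detected, 224 to 490 in liver macrophages with 4 detected, 1154 on microglia replicate 1 with 10 detected and 62.5 on microglia replicate 2 with 3 detected. The microglia arrays thus differed from each other in this list by a larger factor than the colon or the liver arrays did. Within the list miR-203-3p went the other way, with log2 levels of 5.62 and 5.58 in microglia. The colon arrays read 4.83 and 3.81 for it, and neither liver array detected it. The remaining members all read higher in colon macrophages than in microglia.

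The hepatocyte miRNA miR-122-5p was detected on 0 colon arrays, and its arms summed to 158 to 277 scaled units in microglia and 2143 to 3639 in liver macrophages. It was called lower in microglia than in liver macrophages (log2 change -3.74, adjusted p = 0.00219 in limma's test), a call made for 31.7% of all miRNAs tested. The erythrocyte markers, miR-451a and miR-144-3p, summed to 715 on microglia replicate 1 and 122 on replicate 2, against 51.2 to 58.8 in colon and 158 to 172 in liver macrophages. miR-451a was not called in microglia against colon (log2 change 2.42, adjusted p = 0.0604 in limma's test) or liver macrophages (0.83, adjusted p = 0.414). It was called higher against colon macrophages with quantile normalization (2.77, adjusted p = 0.0491) and without microglia replicate 1 (1.16, adjusted p = 0.0431), and against both without microglia replicate 2 (3.72 and 2.20, adjusted p = 0.0113 and 0.0114).

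The lymphocyte markers, the arms of miR-150, summed to 12.4 and 85.6 scaled units on microglia replicates 1 and 2, 10.1 to 18.6 in colon macrophages and 140 to 506 in liver macrophages. miR-150-5p was detected on 0 microglia arrays and on all others. miR-150-3p entered the test against colon macrophages through the microglia arrays alone, so it could hardly change in another direction and no call is given there. Both liver arrays detected it, and it was called higher in microglia against liver macrophages (3.32, adjusted p = 0.0295 in limma's test), a call made for 21.2% of all miRNAs tested. Its log2 levels were 3.63 and 6.42 in microglia and at or next to the floor elsewhere, from 1.64 to 1.77, so the size rests on the floor. The call against liver macrophages was lost on the control rows (adjusted p = 0.0580 in limma's test) and without any single colon or liver array. Of the 3 myeloid markers, 1 was lower in microglia in each comparison, miR-223-3p (-4.38 and -3.56, adjusted p = 0.00177 and 0.00218 in limma's test), a call made for 28.5% and 31.7% of all miRNAs tested. The myeloid sums were 5231 to 5901 in microglia, 10703 to 12907 in colon macrophages and 5594 to 10083 in liver macrophages.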

How the data were processed

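Cy3-labelled miRNA made from 100 ng of total RNA was hybridised to 1-colour Agilent arrays, and cells had been isolated within 5 h, per the labels' protocols. Per the file headers, the authors deposited for each array a linear intensity per miRNA (the total gene signal), its error and a detection flag (another kind of value, 0 or 1); undetected miRNAs hold a placeholder of 0.1. Agilent Feature Extraction 9.1 made them, per the submitters' processing notes. The files hold no background, slide or scan columns, so those corrections and blocks were not run. A deposited value table of 595 miRNAs on a log2 scale, with a normalization not given in the sources used here, served as an alternative.

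After 21 control rows were left out, signals were scaled, floored and log2-transformed as described with the results. Group means over all 6 arrays were compared with limma 3.58.1 in R 4.3.3 (lmFit, eBayes; 2-sided; degrees of freedom 3 residual and 2.20 prior). p-values were adjusted by Benjamini-Hochberg over the miRNAs that both arrays of 1 of the groups compared had detected, with a threshold of 0.05. The code was tested on simulated data. Other tables and figures used Python 3.11.15 with pandas 2.3.3. Alternatives changed the scaling, floor, detection filter, arrays, variance model and replicate block. The named miRNAs were the pair, their 5p arms, miRNAs sharing their seed, miRNA genes within 1000 kb, the 5 closest patterns per member, and the brightest or called members of each list. The pair and the lists were chosen with earlier results of these data known, so no list was tested as a set.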

Additional observations from a re-analysis of the deposited data

How the results depend on the processing

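miR-132-3p stayed lower in microglia under all alternatives run. Of 19 alternatives 15 kept its call against colon macrophages and 11 against liver macrophages. These counts include the fits without a microglia array, which are not read as support. In limma's test the call was lost with scaling on the 75th percentile over all miRNAs (log2 change -2.45 against colon, adjusted p = 0.324, and -1.30 against liver macrophages, adjusted p = 0.623). That percentile is the placeholder on microglia replicate 1, which detected 24.1% of miRNAs. It was also lost without a detection filter, where 1247 miRNAs were tested (-4.00, adjusted p = 0.201, and -3.00, adjusted p = 0.250). Against liver macrophages it was further lost with quantile normalization (-2.67) and in the authors' value table (-2.77). The cause was not tested for these. Leaving out 1 array at a time gave -5.19 to -3.05 and -4.12 to -2.06. With the floor at 0.5 times its value the changes were -4.50 and -3.50, with the floor at 4 times -2.95 and -1.94, and with each array's own lowest detected signal, an alternative chosen after seeing the data, -3.81 and -2.81. Testing only miRNAs detected on all arrays left miR-132-3p out.

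miR-212-3p passed under none of 20 alternatives in any comparison, with adjusted p from 0.0629 upward in limma's test. Its sign turned with no scaling (-0.19 against colon and -0.25 against liver macrophages) and on the dmr control rows (-0.29 in both). For colon against liver macrophages it turned with median scaling (0.034) and the 75th percentile over all miRNAs (0.13). Leaving out 1 array gave -0.00492 to 0.32, -0.13 to 0.40 and, for colon against liver macrophages, -0.26 to 0.26.

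The count of miRNAs called by limma was 175 for microglia against colon, 202 against liver and 40 for colon against liver macrophages. These became 0, 0 and 0 with the 75th percentile over all miRNAs (120, 131 and 8 at an unadjusted p under 0.05), 99, 134 and 25 with the floor at 4 times and 27, 52 and 7 without a filter. With only miRNAs detected on all arrays they were 111, 137 and 19. For colon against liver macrophages the count was 26 with no scaling and 24 on the dmr control rows. Leaving out 1 array gave 53 to 203, 117 to 221 and 19 to 109.

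Replicate numbers are shared between groups by label only. The deviations of same-numbered arrays from their group means correlated at 0.21, 0.072 and -0.092 between groups (248 miRNAs), so the arrays were not treated as pairs. With a replicate block the changes of miR-132-3p stayed at -4.00 (adjusted p = 0.00659 in limma's test) and -3.00 (0.0108), and the counts were 161, 191 and 24.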

Other observations

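In the value table deposited by the authors, on a log2 scale, miR-132-3p stood at 0 and 4.26 in microglia. The colon arrays read 6.32 and 6.78 and the liver arrays 5.49 and 5.93, the 0 standing where the scanner file lists the miRNA as not detected. miR-212-3p stood there at 7.22 and 7.62 in microglia, with colon arrays at 6.60 and 6.85 and liver arrays at 6.58 and 6.96. It was not called there in limma's test (0.695, adjusted p = 0.0878 against colon, and 0.65, adjusted p = 0.0924 against liver macrophages). In those values 102 of 379 and 109 of 382 miRNAs tested were called higher in microglia. miR-212-5p is listed at 0 on all 6 arrays.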
